A study of Mus musculus with 24 samples.

Results

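Eya1, Eya2, Eya3, Eya4, Six2, Six4, Dach1 and Dach2 belong to the families whose proteins form the eyes absent, sine oculis and dachshund network. They were 8 of the 22889 entries of the expression table, and they were chosen by name, with their RPKM levels in the sorted groups already known. Their levels and differences are therefore given as a description. The samples were 24 libraries from mouse embryonic stem cell cultures, in 4 groups of 6. The oculomotor neuron (OMN) groups came from an Islet1-GFP/NesEPhox2a line, which carries a Phox2a transgene under a nestin enhancer that drives it in neuronal progenitors, as embryoid bodies patterned for 5 days with 250 nM of the Smoothened agonist SAG and 100 ng/ml of Fgf8. The spinal cord (SC) groups came from an Hb9-GFP line patterned for 5 days with 500 nM SAG and 100 nM retinoic acid. Each culture was sorted into GFP-positive cells, which are the motor neurons by reporter, and GFP-negative cells, and each fraction was sequenced in bulk. Line, reporter, transgene and morphogens changed together between the cultures, so their parts in a difference between OMN and SC samples cannot be told apart. Nothing in the labels says whether replicates were separate differentiations, so the spread between them may in part be technical.

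Eya proteins are unusual transcriptional coactivators that are also protein phosphatases. They do not bind DNA themselves and are brought to their target genes by proteins of the sine oculis homeobox family, which bind DNA through a homeodomain. Dach proteins are nuclear factors related to the Ski family of corepressors, and the network is known from the fly eye, where the eyes absent, sine oculis and dachshund genes work together, and from the ear, kidney, muscle and cranial sensory ganglia of vertebrates. Eya1 is needed in early ear and kidney development, Six2 keeps kidney progenitors undifferentiated, and Six4 acts in muscle and sensory neurons.

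The members lie at separate places in the GRCm38 assembly. Eya1 is at chr1:14168954-14310235 on the minus strand, Eya2 at chr2:165595032-165771727 on the plus strand, Eya3 at chr4:132638987-132724765 on the plus strand and Eya4 at chr10:23102963-23350786 on the minus strand. Six2 is at chr17:85684277-85688274 and Six4 at chr12:73099609-73113456, both on the minus strand. Dach1 is at chr14:97786853-98169765 on the minus strand, and Dach2 is at chrX:113297510-113836386 on the plus strand. No exon of another gene overlapped an exon of a member.

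Because reads of close paralogs can be mistaken for each other, conserved coding stretches of the families are shown, as 60 bases of the coding strand from GENCODE M21 transcripts. They were placed by protein motifs or shared residues, so they need not hold the longest runs of identical bases given below. The 4 Eya stretches begin 15 bases before the codons of the conserved aspartate motif of the phosphatase domain, and capitals mark the 19 bases at which the 4 genes are not all alike:
Eya1: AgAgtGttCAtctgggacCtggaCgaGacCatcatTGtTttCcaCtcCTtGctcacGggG
Eya2: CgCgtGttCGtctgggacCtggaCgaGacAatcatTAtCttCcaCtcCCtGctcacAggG
Eya3: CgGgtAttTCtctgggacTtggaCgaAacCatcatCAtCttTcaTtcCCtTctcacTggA
Eya4: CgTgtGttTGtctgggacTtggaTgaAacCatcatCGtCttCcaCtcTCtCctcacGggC
These lie within single exons at chr1:14229517-14229576, chr2:165731553-165731612, chr4:132699030-132699089 and chr10:23138215-23138274. Eya1 and Eya2 differed at 8 of the 60 bases, and Eya1 and Eya3 at 16. The Six2 and Six4 stretches hold the part of the homeodomain that contacts DNA, and the Dach stretches begin the longest run of residues that the Dach proteins share. Capitals mark the 16 bases that differ between Six2 and Six4 and the 12 that differ between Dach1 and Dach2:
Six2: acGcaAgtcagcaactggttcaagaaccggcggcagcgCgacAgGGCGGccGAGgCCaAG
Six4: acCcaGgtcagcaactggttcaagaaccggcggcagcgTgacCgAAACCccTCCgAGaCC
Dach1: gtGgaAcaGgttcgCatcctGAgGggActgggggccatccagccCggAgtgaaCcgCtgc
Dach2: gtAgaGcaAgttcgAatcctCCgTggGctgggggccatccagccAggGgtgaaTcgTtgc
They lie at chr17:85687398-85687457, chr12:73112354-73112413, chr14:98168539-98168598 and chrX:113298820-113298879. Over whole transcripts the longest run of identical bases between members of a family was 29 bases, for Eya2 and Eya3, among the Eya genes, 32 bases between Six2 and Six4 and 20 bases between Dach1 and Dach2. Per the study's methods, reads were longer than each of these runs.

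Levels are RPKM, reads scaled by gene length and by library size, which can be compared between genes. All 179 member values above 0, of 192, came out as whole reads when multiplied by gene length and library size, and so the reads behind each value are known. Libraries held an estimated 752529 to 7675428 reads. There were 3 libraries that stood apart. The SC GFP-positive sample 4 held Isl1, a motor neuron transcription factor, at 7.63 RPKM against 50.4 to 122.9 in the other 5, and its summed RPKM over 6 pluripotency markers was 5142. The SC GFP-negative sample 4 held Mnx1, the gene of the Hb9 reporter, at 69.4 RPKM against 4.72 or less in the other 5, with a pluripotency sum of 5785. Both samples therefore went against their labels, and member results that rest on them are given with and without them. Sums over lists of markers include both samples. In the SC GFP-negative sample 2, 3 gene models without a known function held 68.8% of the summed RPKM. They held 17.8% in the SC GFP-positive sample 2, and 5.44% or less in every library other than these. RPKM is scaled by library size, so such a share may lower the values of other genes in the SC samples numbered 2. Among the others, SC GFP-positive sample 5 had a pluripotency sum of 12400 with Isl1 at 55.5 RPKM. OMN GFP-negative samples also held pluripotency markers, with sums from 683.6 to 9876. In bulk samples, fewer cells of a type and less RNA per cell cannot be told apart.

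Eya1 was the member whose level most clearly marked the OMN GFP-positive group. Its level there was 10.95, 14.36, 7.41, 11.95, 15.76 and 12.31 RPKM in samples 1 to 6, resting on 132 to 786 reads a sample. It was 0.485, 1.17, 0.671, 1.80, 1.59 and 1.77 RPKM in OMN GFP-negative samples. It was 1.05, 0.110, 0.444, 0.557, 0.531 and 0.768 RPKM in SC GFP-positive samples. The lowest OMN GFP-positive sample was thus well above the highest of these. In SC GFP-negative samples Eya1 was at 0.597, 0.151, 0, 0, 1.62 and 0.758 RPKM, where a count of 0 reads allows up to 0.511 RPKM in sample 3 and 0.0904 RPKM in sample 4 (3 reads, counting error only). The mean was 12.1 ± 2.89 RPKM (SD, n = 6) in OMN GFP-positive and 0.577 ± 0.316 (SD, n = 6) in SC GFP-positive samples, a ratio of 21.0. On the log2(RPKM + 1) scale, which understates changes near or below 1 RPKM, the difference was 3.05 (SE 0.29), and it was 2.98 in samples 1 to 4 and 3.18 in the deeper samples 5 and 6. Without the SC samples numbered 4 it was 3.05 (SE 0.30), and the SC GFP-positive mean was 0.581 ± 0.353 RPKM (SD, n = 5). Against the GFP-negative cells of the same culture Eya1 was higher by 2.55 (SE 0.28) on that scale, and in all 6 same-numbered pairs. The order of the other 3 groups was OMN GFP-negative, SC GFP-positive and SC GFP-negative, and these groups overlapped one another.

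Eya2 was high in the same group but varied far more. In OMN GFP-positive samples 1 to 6 it was at 14.9, 45.0, 70.5, 69.4, 15.6 and 10.3 RPKM, from 205 to 534 reads. Samples 2, 3 and 4 formed the upper end, well apart from samples 1, 5 and 6. In SC GFP-positive samples it was at 9.88, 8.27, 3.51, 0.259, 0.373 and 0.396 RPKM, so samples 1 to 3 held Eya2 transcripts while samples 4 to 6 rested on 3, 8 and 9 reads. The highest of these lay just under the lowest OMN GFP-positive sample, so the groups did not overlap. In GFP-negative cells Eya2 was at 0.116, 0.396, 3.77, 1.75, 0.980 and 1.14 RPKM in OMN and at 0.462, 0.598, 1.35, 0.476, 0.144 and 0.666 RPKM in SC samples. Means were 37.6 ± 27.9 RPKM (SD, n = 6) in OMN GFP-positive and 3.78 ± 4.31 (SD, n = 6) in SC GFP-positive samples. The difference on the log2(RPKM + 1) scale was 3.21 (SE 0.69) between the GFP-positive groups and 3.82 (SE 0.57) between the OMN fractions. Between the SC fractions it was 1.03 (SE 0.57), with 1.54 in samples 1 to 4 and 0.0045 in samples 5 and 6. In the pair numbered 4 Eya2 was lower in the GFP-positive sample, so this step lay mainly in samples 1 to 3. Without the SC samples numbered 4, the SC GFP-positive mean of Eya2 was 4.49 ± 4.42 RPKM (SD, n = 5), the difference between the GFP-positive groups was 2.94 (SE 0.70) and the SC step was 1.28 (SE 0.62).

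**Figure D1:**
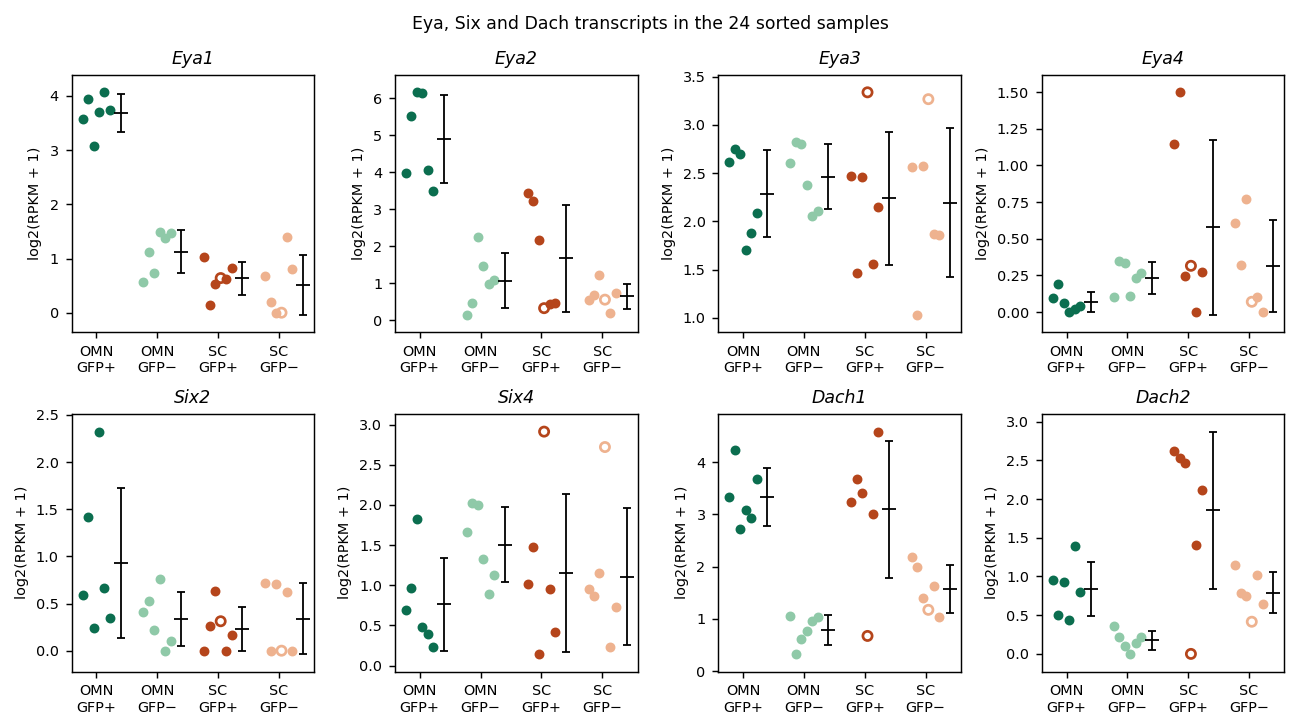
Level of each of the 8 genes, as log2(RPKM + 1) on the vertical axis, in the 6 samples of each sorted group (points, in order of replicate number), with the group mean and SD beside them; open circles are the SC samples numbered 4. Eya1 and Eya2 sit highest in OMN GFP-positive samples, Dach1 is high in GFP-positive samples of both cultures apart from SC sample 4, and the open circles are the highest Eya3 and Six4 values.

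Eya3, the most broadly expressed of the family, was found in all 24 samples and hardly followed the groups. Its mean was 4.08 ± 1.53 RPKM (SD, n = 6) in OMN GFP-positive, 4.63 ± 1.28 (SD, n = 6) in OMN GFP-negative, 4.21 ± 2.69 (SD, n = 6) in SC GFP-positive and 4.13 ± 2.66 (SD, n = 6) in SC GFP-negative samples. No pair of groups differed beyond its spread, and the log2 differences ran from -0.17 to 0.27 in the 4 comparisons of groups. The 0.27 was between the GFP-negative groups, and it was 0.036 (SE 0.34) without SC GFP-negative sample 2. Eya3 was at its lowest of the series in that sample, at 1.05 RPKM. The highest Eya3 levels in the series, 9.11 and 8.62 RPKM, were in the SC samples numbered 4 of both fractions. Without that pair the SC means were 3.23 ± 1.35 RPKM (SD, n = 5) in GFP-positive and 3.23 ± 1.67 (SD, n = 5) in GFP-negative samples.

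Eya4, the member known from hereditary deafness and heart muscle disease, was near the limit of detection. In OMN GFP-positive samples it ranged from 0 to 0.144 RPKM with a median of 0.0361, on 12 reads over all 6 samples. In SC GFP-positive samples it was at 1.21 and 1.83 RPKM in samples 1 and 2, from 32 and 40 reads, and between 0 and 0.245 RPKM in samples 3 to 6. In the GFP-negative groups it ranged from 0.0731 to 0.274 RPKM in OMN and from 0 to 0.705 RPKM in SC samples. The groups overlapped in each comparison. The SC GFP-positive mean was 0.612 ± 0.733 RPKM (SD, n = 6), or 0.686 ± 0.795 (SD, n = 5) without sample 4.

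The makeup of the Eya family transcripts, as shares of the summed RPKM of the 4 genes, differed between the OMN GFP-positive group and the rest. There the sum was 25.9 to 83.7 RPKM, of which Eya2 held a median of 58.5% and Eya1 of 28.6%, and Eya3 held 8.34%. In the other groups the sum was 2.05 to 16.7 RPKM and Eya3 held the largest median share, from 54.8% in OMN GFP-negative to 67.7% in SC GFP-negative samples. The SC GFP-positive samples were mixed, with Eya2 at 2.55% to 69.2% of the sum.

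**Figure D2:**
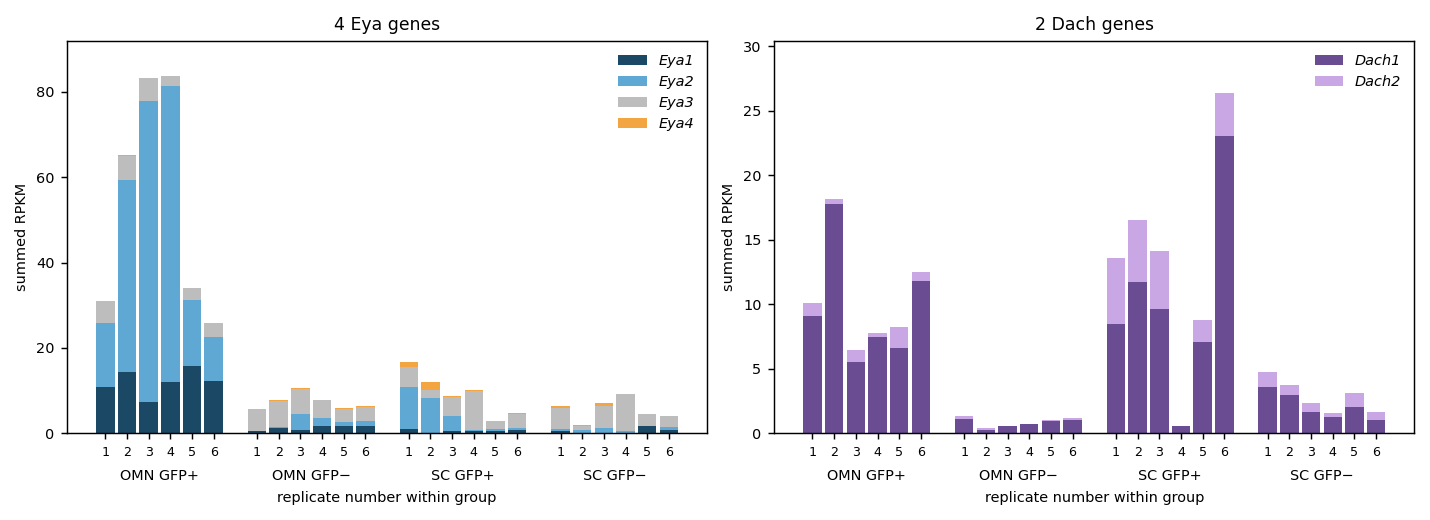
Summed RPKM (vertical axis) of the 4 Eya genes (left) and the 2 Dach genes (right) in each of the 24 samples, by replicate number within group, with the share of each gene stacked. Eya sums reach 83.7 RPKM in OMN GFP-positive samples and stay at 16.7 RPKM or less elsewhere, and Dach sums are high in GFP-positive samples of both cultures apart from SC sample 4 at 0.595 RPKM.

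Six2 and Six4 were both low, also where Eya1 and Eya2 were high. Six2 was at 0.508, 1.67, 0.184, 4.00, 0.591 and 0.273 RPKM in OMN GFP-positive samples 1 to 6. The highest of these values rested on 12 reads, and all 6 samples together held 43 reads. In the other groups Six2 ranged from 0 to 0.700 RPKM in OMN GFP-negative, from 0 to 0.545 RPKM in SC GFP-positive and from 0 to 0.647 RPKM in SC GFP-negative samples, on 10, 7 and 14 reads in all. The log2 difference between the GFP-positive groups was 0.70 (SE 0.32), or 0.72 (SE 0.34) without SC sample 4, with overlapping groups. With 43 and 7 reads behind these groups, no direction is given.

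Six4 had a difference of the opposite sign in the OMN culture. It was at 0.615, 0.950, 2.56, 0.391, 0.317 and 0.173 RPKM in OMN GFP-positive samples and at 2.16, 3.07, 2.99, 1.50, 0.860 and 1.19 RPKM in OMN GFP-negative samples. The level was lower in the GFP-positive sample of all 6 same-numbered pairs, although the groups overlapped, and the log2 difference was -0.74 (SE 0.43). All 6 pairs went in 1 direction for 23.2% of the genes tested between the OMN fractions, so such a count is common in this culture. In the SC culture Six4 was at 1.02, 1.78, 0.106, 6.53, 0.930 and 0.336 RPKM in GFP-positive and at 0.934, 0.816, 1.22, 5.59, 0.170 and 0.662 RPKM in GFP-negative samples. The samples numbered 4 stood far above the rest in both fractions, and without them the means were 0.835 ± 0.656 RPKM (SD, n = 5) and 0.761 ± 0.390 (SD, n = 5). Those samples were also the ones with Eya3 at its highest and with the pluripotency sums given above, whose part in the Six4 level was not tested.

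Dach1 was high in GFP-positive samples of both cultures apart from SC sample 4. It was at 9.13, 17.7, 5.56, 7.44, 6.59 and 11.8 RPKM in OMN GFP-positive and at 1.08, 0.256, 0.525, 0.709, 0.935 and 1.06 RPKM in OMN GFP-negative samples. The 2 fractions were well apart, with a ratio of means of 12.8 and a log2 difference of 2.53 (SE 0.44). In SC GFP-positive samples Dach1 was at 8.44, 11.8, 9.63, 0.595, 7.09 and 23.0 RPKM, and in SC GFP-negative samples at 3.56, 2.99, 1.63, 1.25, 2.07 and 1.06 RPKM. Here 5 of the 6 pairs were higher in the GFP-positive sample, and the exception was the pair numbered 4, whose GFP-positive sample had the lowest summed RPKM of 6 neuron markers in its group, 64.5 against a group median of 584.9. The SC step was 1.53 (SE 0.44) on the log2 scale with all samples, which did not pass, and 1.94 (SE 0.33) without that pair, which did. Between the GFP-negative groups, OMN minus SC, the difference was -0.78 (SE 0.44), or -0.85 (SE 0.32) without the SC samples numbered 4, and neither passed. Between the GFP-positive groups the difference was 0.23 (SE 0.54), and it turned to -0.26 (SE 0.36) without the SC samples numbered 4, so no direction is given.

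Dach2 was lower than Dach1, and its differences between the cultures did not pass the test across all genes in either fraction. It was at 5.17, 4.79, 4.51, 0, 1.65 and 3.33 RPKM in SC GFP-positive samples, where the count of 0 reads in sample 4 allows up to 0.0778 RPKM. It was at 1.22, 0.718, 0.673, 0.334, 1.02 and 0.557 RPKM in SC GFP-negative samples. In the OMN culture it was at 0.939, 0.413, 0.911, 0.358, 1.62 and 0.734 RPKM in GFP-positive and at 0.279, 0.166, 0.0707, 0, 0.105 and 0.163 RPKM in GFP-negative samples. The OMN fractions did not overlap, and neither did the GFP-negative groups of the 2 cultures, with every SC sample above every OMN sample. The step between fractions was 0.66 (SE 0.33) in OMN and 1.07 (SE 0.33) in SC samples on the log2 scale, the latter 1.36 (SE 0.24) without the samples numbered 4. SC GFP-positive samples exceeded OMN GFP-positive samples by 1.02 (SE 0.45), or by 1.39 (SE 0.34) without them. In that group Dach2 made up 0% to 38.0% of the summed Dach RPKM, against 2.27% to 19.7% in OMN GFP-positive samples.

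**Figure D3:**
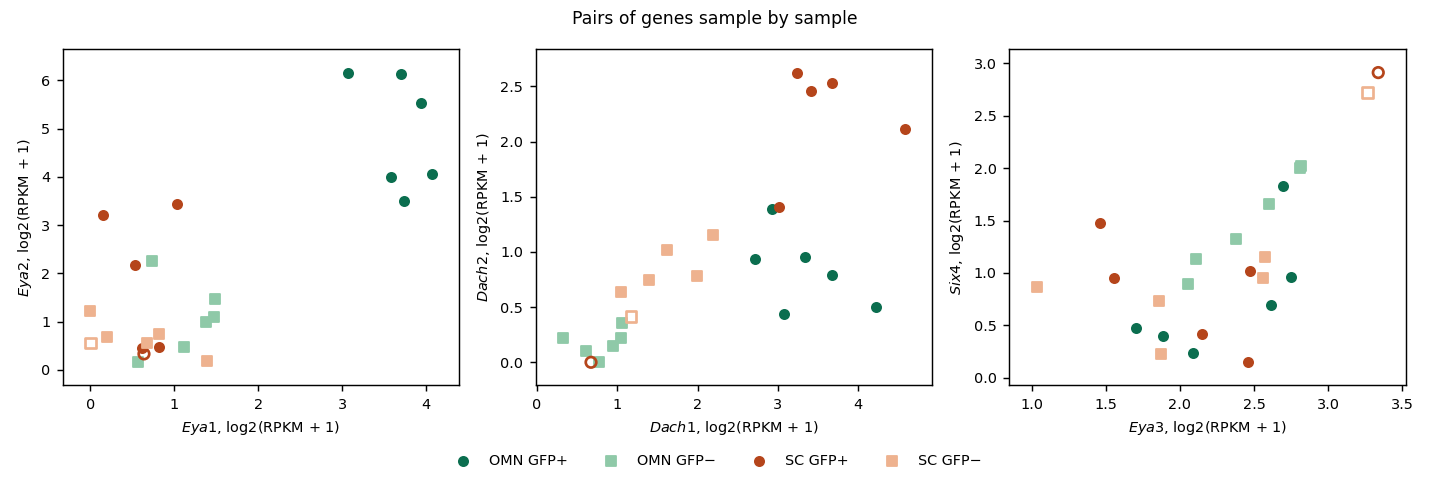
Levels of 3 pairs of genes as log2(RPKM + 1), 1 point per sample, coloured by sorted group (circles GFP-positive, squares GFP-negative, open symbols the SC samples numbered 4). The OMN GFP-positive samples form a separate cloud in Eya1 and Eya2, the SC GFP-positive samples other than sample 4 lie above them in Dach2 at similar Dach1, with sample 4 at a Dach2 level of 0, and the open symbols lie at the upper end of Eya3 and Six4.

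The members were also placed in tests across the whole table, made with limma on log2(RPKM + 1) with Benjamini-Hochberg adjustment and a threshold of 0.05. Between the GFP-positive groups 1 of the 8 members passed, Eya1, where 0.603% of 19240 genes tested did. Eya2 had a larger difference and a larger error, and did not pass, although it did under 6 of the alternatives, limma-voom among them. Between the GFP-negative groups none of the 8 passed, where 0.96% of 22179 genes did. At an unadjusted p under 0.05 there was 1 member, and limma-voom on recovered reads gave 0. Between the OMN fractions 3 of 8 passed, Eya1, Eya2 and Dach1, all higher in GFP-positive cells, where 6.15% of genes did. Between the SC fractions none of the 8 passed, where 1.23% of genes did, with 2 members at an unadjusted p under 0.05 and 0 by limma-voom. Dach1 and Dach2 passed once the samples numbered 4 were left out. The OMN step minus the SC step passed for 1 member, Eya1, at 2.44 (SE 0.40), where 0.32% of genes did, and it did not pass with an offset of 0.1 RPKM, in replicates 1 to 4 or with limma-voom. For Eya2 the same difference of steps was 2.79 (SE 0.80), which passed only with the pairs as blocks, where calls over all genes rose from 71 to 453. Groups did not overlap for Eya1 and Eya2 between the GFP-positive groups, where 1.43% of genes did not, for Dach2 between the GFP-negative groups, where 1.27% did not, and for Eya1, Eya2, Dach1 and Dach2 between the OMN fractions, where 6.52% did not. No member's SC fractions were apart, where 0.469% of genes were. All 6 same-numbered OMN pairs went in 1 direction for 7 of 8 members, where 23.2% of genes did. Eya1, Eya2, Six2, Dach1 and Dach2 were higher and Eya4 and Six4 lower in the GFP-positive sample. For Six2, pair 3 held 1 read in each fraction. For Eya4, pair 1 held 3 reads in the GFP-positive and 2 in the GFP-negative sample. The count therefore gives no direction for Six2 and Eya4. All 6 SC pairs went in 1 direction for 0 members, where 5.06% of genes did. Since the members were listed with these levels known, the counts describe them and are no evidence for the network as a whole. The comparisons share samples, so they are not independent of each other.

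**Figure D4:**
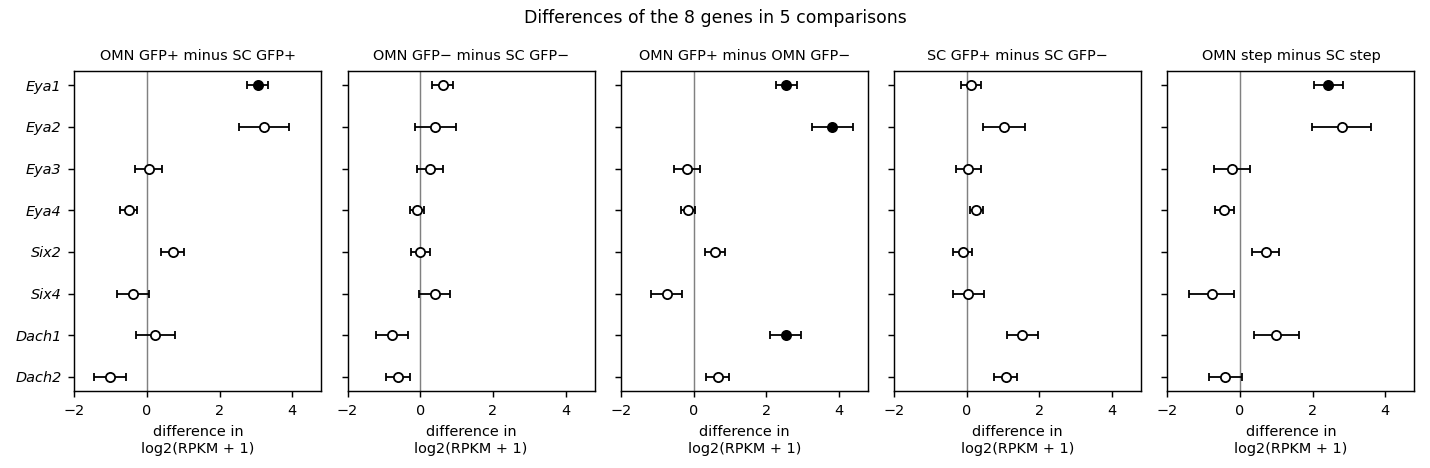
Difference in log2(RPKM + 1) of each gene (horizontal axis, with its SE as bars) in the 5 comparisons; filled points passed the adjusted threshold in the test across all genes. Eya1 passed in 3 panels, at 3.05, 2.55 and 2.44, Eya2 and Dach1 in the OMN fractions alone, and no gene in the GFP-negative groups or the SC fractions.

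The genes whose level over the 24 samples was most like that of a member, by Pearson's r of log2(RPKM + 1) among 11951 genes with a mean of at least 1 RPKM, are given as a description, since all points share the 4 groups and the library depths. For Eya1 they included Tbx20 (r = 0.955), Fam163a (0.930), Thsd7b (0.916) and Rgs4 (0.907). Tbx20 is a transcription factor of cranial motor neurons and was at 6.39 to 14.1 RPKM in OMN GFP-positive samples and at 0.839 or less in the rest. For Eya2 they included Mfap4 (0.916), Sdk2 (0.913), Syt13 (0.909) and Cacna1e (0.909). For Dach1 they were C530008M17Rik (0.925), Soga3 (0.924), St6galnac5 (0.923), Elavl4 (0.919) and Kif5c (0.915), of which Elavl4 encodes a neuronal RNA-binding protein and Kif5c a neuronal kinesin. Between members, r over the 24 samples was 0.781 for Eya1 with Eya2, but -0.436 within the 6 OMN GFP-positive samples. It was 0.708 for Dach1 with Dach2 and 0.634 for Eya3 with Six4.

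Of the other genes of the family, Six3, Six5 and Six6 are given here. Six3, a gene of the forebrain and eye field, was at 0 in all 6 SC GFP-positive samples, at 0 to 0.848 RPKM in OMN GFP-positive and at 0.256 to 1.36 RPKM in OMN GFP-negative samples. Between the GFP-negative groups it passed, higher in OMN by 0.76 (SE 0.16; adjusted p = 0.0188 in limma). Six6, its relative in eye and pituitary, was at 0.0975 to 2.47 RPKM in OMN GFP-positive samples and at 0 in 5 of 6 samples of each SC group. Six5 was found at a mean of 1.63 to 4.09 RPKM in the 4 groups.

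Pax genes, which act together with the network in the eye, ear and kidney, were near 0 in OMN GFP-positive cells. The 8 Pax genes in the table, Pax1 to Pax9 without Pax4, summed to 0.0535 to 0.955 RPKM there. They summed to 1.145 to 5.54 RPKM in OMN GFP-negative, 0.643 to 5.39 in SC GFP-positive and 0.551 to 7.46 in SC GFP-negative samples. Pax6 held most of the last of these sums, and the highest SC GFP-positive sum was that of sample 4. None passed in any of the 5 comparisons in limma, with 1 at an unadjusted p under 0.05 in each of the comparisons of the GFP-positive groups and of the OMN fractions, and 0 by limma-voom. The chosen markers of muscle and ear, where the network is known, were low in OMN GFP-positive cells as well. Myod1 and Myog, which define muscle, were at 0.773 RPKM or less in all 12 GFP-positive samples. Myf5, another muscle marker, had a mean log2(RPKM + 1) of 0.561 in OMN GFP-positive, 0.0695 in OMN GFP-negative and 0 in SC GFP-positive samples. Between the GFP-positive groups it differed by 0.20 in samples 1 to 4 and by 1.29 in samples 5 and 6. Myf5 passed neither between the GFP-positive groups nor between the OMN fractions. The 5 placode and ear markers in the table, among them Dlx5 and Pax2, summed to 0.0373 to 1.07 RPKM in OMN GFP-positive samples. In SC GFP-positive samples they summed to 0 to 3.26 RPKM, the highest being sample 4. The other list, of placode and ear partners, was not as low. It summed to 3.86 to 51.4 RPKM in OMN GFP-positive and 17.9 to 38.2 RPKM in OMN GFP-negative samples. The 6 skeletal muscle markers summed to 0.994 to 3.30 RPKM in OMN GFP-positive, 1.06 to 11.5 in OMN GFP-negative, 0.0430 to 7.79 in SC GFP-positive and 0.113 to 9.95 in SC GFP-negative samples. The highest SC GFP-negative muscle sum was that of sample 4. In OMN GFP-positive samples the 5 sensory neuron markers, among them Isl1, which motor neurons share, summed to 282.1 to 424.7 RPKM, against 1.98 to 4.09 in OMN GFP-negative, 32.3 to 221.9 in SC GFP-positive and 3.31 to 35.6 in SC GFP-negative samples. The lowest SC GFP-positive sum, 32.3, and the highest SC GFP-negative sum, 35.6, were those of the samples numbered 4. Isl1 is also the gene of the reporter by which the OMN cells were sorted. Of the 5 sensory neuron markers, 1 stayed under 1 RPKM in all 6 OMN GFP-positive samples. Pou4f1, a sensory neuron transcription factor, was at 4.94 to 23.6 RPKM in OMN GFP-positive and at 0.458 to 3.07 RPKM in SC GFP-positive samples. It was thus present in the group with high Eya1 and Eya2. This gene alone does not identify sensory neurons, whose part in those levels was not tested.

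Of 60 other genes in 6 lists of the wider network, 6 passed between the OMN fractions, where 6.15% of all genes did. The 8 genes of the Ski family and its corepressors, such as Ski, Ncor1 and Hdac2, were all expressed in OMN and SC motor neurons, with sums of 122.2 to 195.5 and 129.2 to 242.8 RPKM, and none passed in any comparison in limma or limma-voom, with 1 at an unadjusted p under 0.05 in each fraction comparison. Of 13 cofactors of sine oculis and Eya proteins, Tle1, a Groucho corepressor, and Gnaz, a G protein subunit that binds Eya2, passed between the OMN fractions, 2 of 13 where 6.15% of all genes did. Tle1 was higher in GFP-positive cells by 1.28 (SE 0.30; adjusted p = 0.00969 in limma) and Gnaz by 1.89 (SE 0.52; adjusted p = 0.0299). The median log2 difference of the 13 was 0.29 in that comparison, beside 0 over all genes tested. Of 19 genes that textbooks name as targets of the network, 3 passed there, beside the same 6.15%. Myc was higher in OMN GFP-positive cells by 2.26 (SE 0.47; adjusted p = 0.00417), while Ezr, which encodes ezrin, was at -2.37 (SE 0.47; adjusted p = 0.00255) and Sox2, a progenitor gene, at -2.97 (SE 0.54; adjusted p = 0.00105), all in limma. The 19 genes had a median of -0.02. With the same-numbered pairs as blocks, 18 genes of the 6 lists passed between the OMN fractions in place of 6, and 5 in place of 1 for the difference of steps. Calls over all genes rose with these blocks as well, from 71 to 453 for the steps. The share of all genes that passed between the OMN fractions with blocks is not given here, so the 18 are not read as a result about the lists. Sox2 also marks pluripotent and progenitor cells. The summed RPKM of 8 neural progenitor markers, Sox2 among them, was 122.1 to 480.8 in OMN GFP-positive samples. It was 139.6 to 310.8 in OMN GFP-negative samples, so these sums overlapped. The sums of the 6 pluripotency markers did not overlap, at 0.315 to 258.6 in OMN GFP-positive and 683.6 to 9876 in OMN GFP-negative samples. The part of either kind of cell in the Sox2 difference was not tested. Of 8 placode and ear partners in the table Otx2, a forebrain and midbrain gene, passed in 3 comparisons. It was at 8.84 to 32.2 RPKM in OMN GFP-negative samples and at 1.73 or less in all other samples, so it exceeded SC GFP-negative samples by 4.17 (SE 0.33; adjusted p = 4.832e-08 in limma). The difference of the OMN fractions, GFP-positive minus GFP-negative, was -3.53 (SE 0.33; adjusted p = 1.886e-07), and that of the steps -3.86 (SE 0.46; adjusted p = 5.014e-05), both in limma. No gene of the 6 lists passed between the GFP-positive groups in limma, with 10 of 55 tested at an unadjusted p under 0.05 and 5 passing by limma-voom. Of all 19240 genes tested there, 1951 were at an unadjusted p under 0.05, and calls over all genes rose from 116 to 375 with limma-voom. None passed between the SC fractions, with 2 of 60 at an unadjusted p under 0.05 and 0 by limma-voom.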

How the data were processed

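Per the labels and the study's methods, FACS-sorted cells were lysed and libraries were made with SMART-seq2, which has no molecular identifiers. The authors mapped reads with HISAT2 2.0.3 to mm10 (GRCm38) and deposited RPKM values from rpkmforgenes, with no read counts. Their gene annotation was not given in the sources used here. DESeq2 1.12.4 is named in the submitters' processing notes for their own tests.

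The members and gene lists were chosen with earlier results of these data known. All 24 samples were used, grouped by their labels. Values were compared as log2(RPKM + 1) with limma 3.58.1 in R 4.3.3 (lmFit, eBayes with trend, Benjamini-Hochberg over all genes tested), keeping every gene whose RPKM exceeded 0 in 2 or more fitted samples. The 12 GFP-positive samples were fitted alone, and other comparisons in 1 model of 24 samples. The fit was tested on simulated data. Reads were recovered from RPKM with GENCODE M21 exon lengths: 90.4% of values of up to 100 reads lay within 0.1 read of a whole number, which holds for all member values. For the fraction comparisons and the difference of steps, GFP-positive and GFP-negative samples of 1 culture and number were treated as pairs in an alternative. Their deviations from the group means correlated at 0.379 to 0.728 in OMN and 0.421 to 0.661 in SC cultures. The correlation was over 0.1 in 6 of 6 pairs each. Across cultures, samples of the same number correlated at -0.175 to 0.707 in the GFP-positive and -0.039 to 0.612 in the GFP-negative fraction. The correlation was over 0.1 in 4 of 6 in each. Numbers were therefore not taken as pairs across cultures, as the rule asked for every correlation to be over 0.1. Whether some numbers share a batch was not tested. The replicate block of the comparisons between cultures used the number alone. All members are named. Of the gene lists, genes that passed are named (at most 4 per list and direction), further genes of the sine oculis, Pax and Ski families by level, and the 5 genes most like each called member. Some genes that these rules would name are not reported here. Alternatives were an offset of 0.1 RPKM, no filter, at least 1 RPKM in at least 3 samples, median-ratio rescaling, sample quality weights, replicate blocks, another set of fitted samples, replicates 1 to 4 only and leaving out each sample, and, chosen after seeing the data, leaving out both SC samples numbered 4, leaving out SC GFP-negative sample 2, and limma-voom on recovered reads. Python 3.11.15, numpy 2.4.6, pandas 2.3.3 and matplotlib 3.10.9 were used.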

Additional observations from a re-analysis of the deposited data

Results flagged for a closer look

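Among the 32 sets of 6 values (8 genes in 4 groups), 1 held a sample that lay apart from the others by Dixon's ratio, where chance gives about 1 in 20. Six4 in the SC GFP-negative sample numbered 4 was at 5.59 RPKM, against 0.170 to 1.22 RPKM in the other 5, and the gap was 0.628 of the group's range on the log2(RPKM + 1) scale. The Six4 value of the GFP-positive sample with the same number was 6.53 RPKM.

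The step between GFP fractions differed between the cultures for Eya1, by 2.44 (SE 0.40) on the log2(RPKM + 1) scale in the test of the interaction across all genes. Eya1 was higher in the GFP-positive sample in 6 of 6 OMN pairs and in 4 of 6 SC pairs.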

How the results depend on the processing

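No direction of a member that passed was turned by an alternative, and of 1278 recomputed member differences 1242 moved by less than 1 SD between replicates. Between the GFP-positive groups, 2 members (Eya1 and Eya2) passed in place of 1 with an offset of 0.1 RPKM, a minimum of 1 RPKM in 3 samples, median-ratio rescaling, sample weights, a fit of all 24 samples and limma-voom. Leaving out 1 sample gave 1 to 2, and 2 came without SC GFP-positive sample 1 (log2 difference of Eya2 up to 3.56) or 2. Of the network lists 3, 2, 1, 3, 6 and 5 genes passed under those 6 alternatives in place of 0, 1 did in replicates 1 to 4, and 0 to 2 without 1 sample. Between the GFP-negative groups no member passed under any alternative, and leaving out 1 sample gave 1 to 3 list genes in place of 2. Between the OMN fractions sample weights gave 5 members in place of 3, with Six4 and Dach2 added, and 19 list genes in place of 6. Calls over all genes rose from 1364 to 3795 with these weights. Another set of fitted samples gave 4 members, with Dach2 added. Replicates 1 to 4 gave 3 list genes, where calls over all genes fell to 476. Between the SC fractions 1 member passed with sample weights, and 2 (Dach1 and Dach2) without both samples numbered 4 or without the GFP-positive one, as leaving out 1 sample gave 0 to 2. The difference of steps in Eya1 no longer passed (0 members) with an offset of 0.1 RPKM, in replicates 1 to 4 or with limma-voom, and leaving out 1 sample kept 1 member. List genes there were 2 with sample weights and 1 to 2 without 1 sample. The causes of these changes were not tested.

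With the replicate block, the members passing were 1, 0, 3, 0 and 2 in the order above, with Eya2 added to the difference of steps at 2.79 (SE 0.64), and list genes were 4 (main 2) between GFP-negative groups, 18 (main 6) and 1 (main 0) between fractions and 5 (main 1) for the steps. The block changed no other call of a member. Calls over all genes rose with it to 649 (main 272) between the SC fractions and to 453 (main 71) for the steps. Between the GFP-positive groups and between the GFP-negative groups the block was the replicate number alone, which did not pair all samples across cultures. Over all genes, calls ran from 30 to 375 (main 116), 39 to 650 (213), 476 to 3795 (1364), 1 to 649 (272) and 10 to 453 (71). Rescaling moved the share of higher calls from 42.7% to 53.2% between the GFP-negative groups and from 62% to 51.2% between the OMN fractions. With limma-voom the median of all genes was -0.188, -0.137 and -0.134 (log2) in the GFP-negative, OMN and SC fraction comparisons, beside -0.0435, 0 and 0 without it, and limma-voom moved the share of higher calls from 58.6% to 40.5% between the GFP-positive groups, to 50.8% between the OMN fractions and from 81.7% to 53.7% for the steps. Depth limits Six2 and Eya4, which rest on 7 to 43 and 12 to 99 reads a group.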
